A study of Mus musculus with 40 samples.

Results

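Mild dysplasia was compared with moderate to severe dysplasia in the lungs of SWR/J mice painted with N-nitrosotris-(2-chloroethyl)urea (NTCU), a carcinogen put on the skin that gives rise to squamous lesions of the airway. The comparison took every SWR/J RNA-seq sample that passed the submitters' quality control and carried 1 of these 2 grade labels, which left 11 of the 40 samples of the series, of which 25 had passed quality control. Samples are called by the number in their label. LCM samples, cells cut out under a laser microdissection microscope, were 5, 7 and 7c with mild dysplasia and 40, 41 and 45 with moderate to severe dysplasia. Whole lung samples, taken from tissue sections and labelled by the worst grade seen in the section, were 73 and 74 with mild dysplasia and 75, 76 and 78 with moderate to severe dysplasia. All 5 mild samples had a total of 15 µmol NTCU. Samples 40, 41, 75 and 76 had 30 µmol, and 45 and 78 had 25 µmol, so the grade and the dose cannot be told apart. These totals are those of the labels, while the study's methods name 15 or 25 µmol, given over 15 or 25 weeks. The mice were female and entered the study as young adults, and the age at sampling is not given in the sources used here. The description of 7c gives normal histology while its grade label gives mild dysplasia, and the grade label was used.

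The airway epithelium is kept up by basal cells, which carry keratins 5 and 14 and divide to replace the club cells that secrete into the airway and the ciliated cells that clear it. In squamous metaplasia and dysplasia this lining gives way to layered cells that make keratins and cornified envelope proteins in place of cilia and secretions. A whole lung section holds all of these beside alveoli, vessels and immune cells. In such bulk RNA, fewer cells of a type and less RNA per cell cannot be told apart.

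The total of expected counts in a sample ran from 2667387 to 13911750. With both sample types pooled, its mean did not differ between the grades beyond the spread of the samples (two-sided exact permutation test, p = 0.827, adjusted p = 0.827 over 3 measures). Within each sample type the grades did not overlap, in opposite directions. In LCM the totals were 2667387 to 6642078 with mild and 6875665 to 10824076 with moderate to severe dysplasia. In whole lung they were 10362357 to 13911750 with mild and 4702067 to 6961714 with moderate to severe dysplasia. The median transcript integrity number (TIN), a measure of how evenly reads cover transcripts and so of how intact the RNA was, ran from 39.5 to 75.1 in mild and from 23.7 to 48.4 in moderate to severe samples (difference in means −14.8, exact permutation p = 0.0823, adjusted p = 0.247). The gap lay in whole lung, where mild samples stood at 63.4 and 75.1 and moderate to severe samples between 23.7 and 45.5. The uniquely aligned share of reads, over both sample types, ran from 18.6% to 77.8% in mild and from 25.5% to 50.8% in moderate to severe samples (exact permutation p = 0.532, adjusted p = 0.798). In whole lung it was 59.5% and 77.8% with mild and between 25.5% and 47.1% with moderate to severe dysplasia, with no overlap. In LCM it ran from 18.6% to 43.9% with mild and from 36.1% to 50.8% with moderate to severe dysplasia. Levels are given as CPM, counts scaled to a common library total, and the log2 CPM of sample pairs correlated across genes with r between 0.705 and 0.928. The labels give no animal behind a sample, so p-values measure the spread between these samples only.

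In 4 of the 6 moderate to severe samples, transcripts of organs next to the airway were abundant. Samples 45 and 78 held thyroglobulin, the precursor of thyroid hormone, with Tg at 7602 and 7723 CPM, while the other 9 samples reached at most 14.9 CPM. The same samples held parathyroid hormone, Pth, at 36358 and 8800 CPM against at most 8.28 CPM elsewhere. They also held the oesophageal and squamous keratin Krt4 at 11448 and 24300 CPM and the muscle creatine kinase Ckm at 2577 and 2181 CPM. Skeletal muscle transcripts were not confined to 45 and 78. The listed muscle genes summed to 16182 and 15451 CPM there, to 2525 and 2422 CPM in 40 and 75, and to 1448 and 757 CPM in mild samples 73 and 7c. Elsewhere they reached at most 261 CPM. Samples 40 and 75 held the recombination gene Rag1, which immature lymphocytes of the thymus use, at 535 and 336 CPM against at most 6.2 CPM elsewhere. Ccl25, a chemokine of the thymic epithelium, stood there at 543 and 220 CPM and Prss16, a thymus-specific protease, at 503 and 284 CPM. Sample 78 further held the liver genes Alb, albumin, at 8061 CPM and Ttr, transthyretin, at 898 CPM. Within each of these pairs, 1 sample was LCM and 1 was whole lung, and the pairs correlated with r = 0.917 for 45 and 78 and r = 0.883 for 40 and 75. Whether a pair came from the same animal is not given. In samples 41 and 76, Tg, Pth, Rag1, Ccl25, Prss16, Alb and Ttr reached at most 5.11 CPM. Results are therefore also given without all 4 samples, which leaves the 5 mild samples against 41 and 76.

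**Figure D1:**
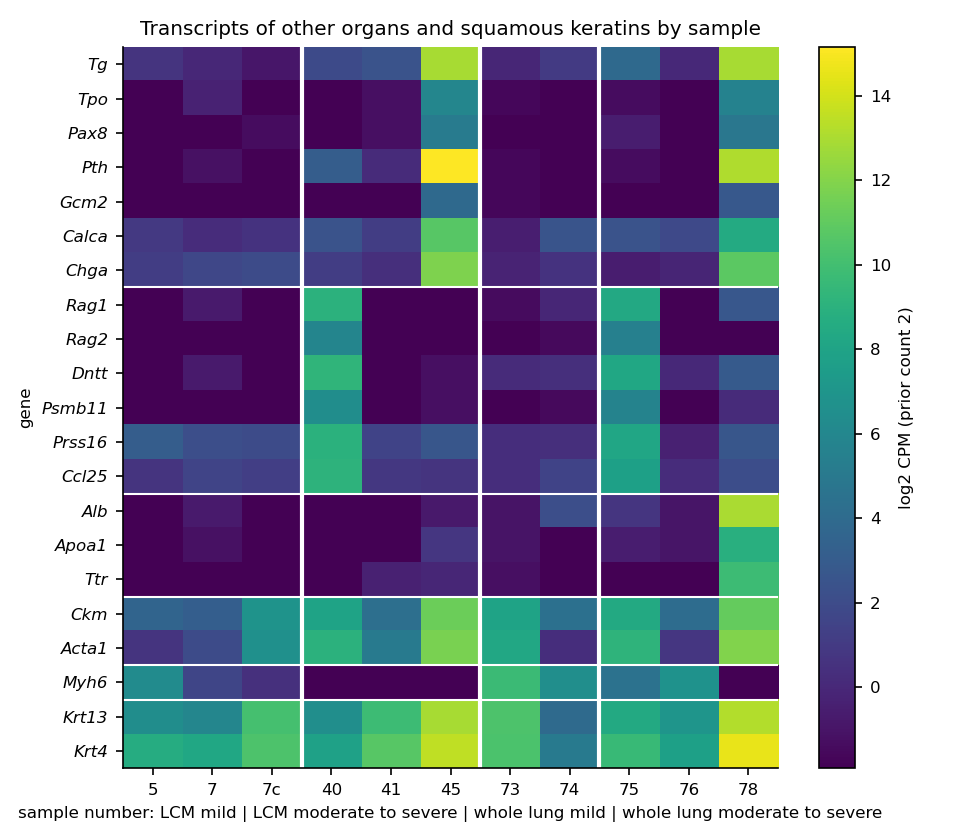
Level in log2 CPM (colour) of 21 genes of thyroid, parathyroid, thymus, liver, muscle and squamous epithelium (vertical axis) in each of the 11 samples (horizontal axis). From left to right stand LCM mild, LCM moderate to severe, whole lung mild and whole lung moderate to severe samples. Thyroid and parathyroid transcripts are high in samples 45 and 78 and thymus transcripts in samples 40 and 75, all with moderate to severe dysplasia.

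With sample type in the model, edgeR's quasi-likelihood test called 0 of 15716 genes at a Benjamini-Hochberg adjusted p under 0.05 (0%). The smallest adjusted p was 0.0545, shared by many genes, and 1605 genes lay under 0.1. At an unadjusted p under 0.05 there were 3960 genes, 2299 of them higher (14.6% of all genes tested) and 1661 lower (10.6%) in moderate to severe dysplasia. DESeq2's Wald test called 2342 genes at an adjusted p under 0.05, 1379 higher (8.77%) and 963 lower (6.13%). In 851 genes (5.41%) all moderate to severe samples lay above all mild samples both among the LCM and among the whole lung samples, and in 615 genes (3.91%) all lay below. Since edgeR called no gene, the values below are differences that did not pass the adjusted threshold, and counts of genes refer to an unadjusted p under 0.05 unless DESeq2 is named. The count hung on single samples. Without 76, edgeR called 748 genes, and with only 45 and 78 as moderate to severe samples 2619. Without 40, 45, 75 and 78 it called 1. With median TIN added to the model it again called 0, and 9.09% of all genes were higher and 7.65% lower at an unadjusted p under 0.05.

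The gene with the smallest p among those higher in moderate to severe dysplasia was Bcl7c, which encodes a subunit of the SWI/SNF chromatin remodelling complex (mm9 chr7:134806867-134852447). Bcl7c stood at 14.3, 16.6 and 16.3 CPM in mild LCM samples and at 40.2, 34.6 and 47.4 CPM in moderate to severe LCM samples. In whole lung it stood at 17.7 and 22.4 CPM with mild and at 47.9, 36.3 and 50.8 CPM with moderate to severe dysplasia. The grades did not overlap in either sample type, and the log2 difference was 1.28 (SE 0.17, edgeR adjusted p = 0.0545), or 0.99 without the 4 samples. Ppp1r14b, an inhibitor of protein phosphatase 1, stood at 29.9, 81.2 and 51.5 CPM against 192, 177 and 235 CPM in LCM and at 35 and 37.8 CPM against 149, 90.7 and 285 CPM in whole lung. Its log2 difference was 2.06 (SE 0.35, adjusted p = 0.0545). The 16 genes shown for this direction included the mitochondrial matrix protease Clpp (log2 difference 1.10), the import chaperones Timm13 (1.39) and Fxc1 (1.01) and the iron-sulfur protein Cisd3 (1.21). Fau, which encodes a ribosomal protein fused to a ubiquitin-like one, had 1.81 (SE 0.32). Others served RNA processing, such as the spliceosome proteins Phf5a (1.18) and Lsm3 (1.31) and the nucleolar protein Nol12 (1.03). Gm10800 had the widest log2 difference of the 16, 4.63 (SE 0.70), but this gene model has close copies between which reads can be split, so its level is uncertain.

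Of the genes lower in moderate to severe dysplasia, Larp4b, an RNA-binding protein, had the smallest p (mm9 chr13:9093151-9172332). Larp4b stood at 35.1, 32.4 and 42.2 CPM against 12.5, 20.1 and 18 CPM in LCM and at 56 and 68.2 CPM against 28.3, 26.4 and 23 CPM in whole lung, with no overlap (log2 difference −1.18, SE 0.17, adjusted p = 0.0545). Hepacam2, a cell adhesion protein of the immunoglobulin family, stood at 16.6, 11.7 and 12.4 CPM against 0.883, 1.7 and 2.31 CPM in LCM. In whole lung Hepacam2 stood at 4.37 and 4.76 CPM against 1.21, 0.916 and 2.36 CPM. The log2 difference of Hepacam2 was −2.45 (SE 0.44) and −2.68 without the 4 samples. Ogn, or osteoglycin, a small proteoglycan of the matrix, stood at 197, 298 and 103 CPM against 20.5, 80.4 and 38.5 CPM in LCM and at 147 and 202 CPM against 37.1, 59.2 and 45.2 CPM in whole lung (log2 difference −2.0, SE 0.37). The other members of the 16 included Cep290, a protein of the base of the cilium (−1.41), Syne2, the giant nesprin that ties the nucleus to the cytoskeleton (−1.42), the chloride channel Ano1 (−1.52), the peptidase Enpep (−1.31) and the histone methyltransferase Ash1l (−1.24). All 32 genes kept their direction without the 4 samples and with an offset for transcript length, which is described with the short transcripts. The 32 were chosen by p in these same samples, with the same sign in both sample types. Both refits share samples with that choice, so the kept direction was largely set by it.

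**Figure D2:**
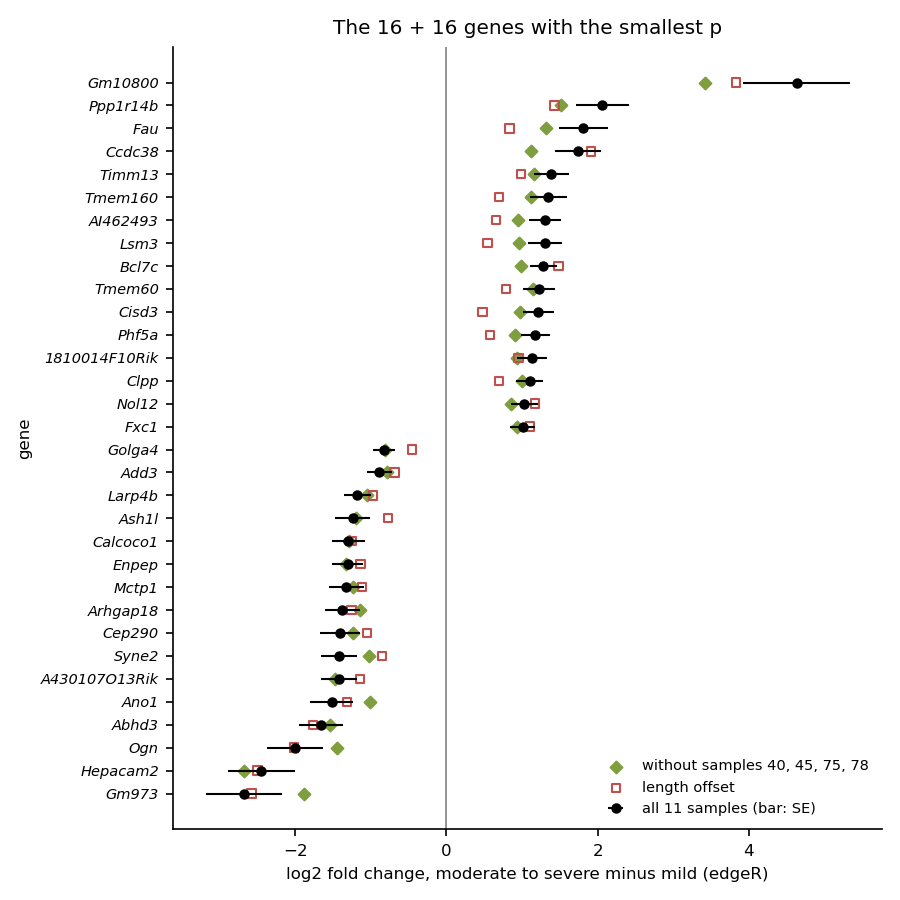
Log2 difference of moderate to severe against mild dysplasia (horizontal axis) for the 16 genes with the smallest p in each direction (vertical axis). Points with bars give the edgeR value ± SE in all 11 samples, and the other marks give the value without samples 40, 45, 75 and 78 and the value with a transcript length offset. Every mark of a gene lies on the same side of 0, which was largely set by choosing the genes by p in these same samples.

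Genes of ciliated cells were lower in moderate to severe dysplasia. All 25 genes of the ciliated cell list had a negative log2 difference, with a median of −1.83 against 0.03 over all genes tested, and 21 of the 25 were lower at p under 0.05, where 10.6% of all genes were lower. DESeq2 called 16 of them, where it called 6.13% of all genes lower. The list holds Foxj1, the transcription factor that switches on the motile cilium programme, and its structural genes. Several of these carry, just upstream of their start, the letters GTTGCC or their reverse complement GGCAAC, the core of the X-box through which RFX factors bind ciliary genes. Promoters of 20 of the 25 genes were in the RefSeq table (GRCm38.p6), and 8 of these 20 genes (40%) held the letters on either strand in the 250 bases before a start, against 11.8% of 27025 genes in the table. Dnaic2, Hydin and Tekt1 are shown because the levels of these ciliary genes are given next. Each line gives the 100 bases before the start site, 5′ to 3′ on the strand of the gene, with the letters searched in capitals.
Dnaic2, chr11:114727319-114727418, + strand: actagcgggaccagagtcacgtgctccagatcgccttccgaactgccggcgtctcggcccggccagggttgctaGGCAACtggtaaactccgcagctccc
Hydin, chr8:110266877-110266976, + strand: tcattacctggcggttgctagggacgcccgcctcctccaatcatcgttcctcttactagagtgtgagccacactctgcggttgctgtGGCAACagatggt
Tekt1, chr11:72361883-72361982, − strand: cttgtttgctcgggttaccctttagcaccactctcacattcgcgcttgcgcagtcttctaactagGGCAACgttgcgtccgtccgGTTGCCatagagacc

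The match begins at −26 in Dnaic2 and at −13 in Hydin, and there are 2 matches in Tekt1, at −35 and −15, where −1 is the base before the start. A match of letters is a description and not a measured binding site.

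Foxj1 stood at 146, 139 and 139 CPM in mild LCM samples and at 9.6, 43.8 and 1.65 CPM in moderate to severe ones. In whole lung it stood at 34.9 and 127 CPM with mild and at 33.8, 51.3 and 10.9 CPM with moderate to severe dysplasia, so that the whole lung samples overlapped through 73 (log2 difference −2.25, SE 0.75, adjusted p = 0.108). Hydin, a protein of the central pair of the axoneme, did not overlap. It stood at 31.2, 20.9 and 26.5 CPM against 1.88, 8.68 and 1.16 CPM in LCM and at 5.52 and 8.66 CPM against 1.07, 0.916 and 5.32 CPM in whole lung (log2 difference −2.27, SE 0.63, adjusted p = 0.0754). Dnaic2, an intermediate chain of the outer dynein arm, stood at 37.7, 23 and 23.6 CPM against 1.1, 10.6 and 1.49 CPM in LCM and at 6.44 and 20.4 CPM against 4.69, 5.89 and 5.02 CPM in whole lung (log2 difference −2.11, SE 0.61). Ift88, a carrier of intraflagellar transport, had the smallest p of the list (−1.17, SE 0.30, adjusted p = 0.0691). Ccdc40, which sets the spacing of dynein arms, had a log2 difference of −2.08 (SE 0.59), and Tekt1, a tektin of the ciliary microtubules, of −1.43 (SE 0.63, adjusted p = 0.186).

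The lower ciliated level was wider in LCM samples. The median log2 difference of the list was −2.49 within LCM and −0.75 within whole lung, and 4 of the 25 genes had an interaction of grade and sample type at an unadjusted p under 0.05, where 3.56% of all genes did. The interaction was called for 0 of 15716 genes at an adjusted p under 0.05 (0%), with 560 at an unadjusted p under 0.05, and DESeq2 called 25. The summed level of the 25 genes ran from 1449 to 2001 CPM in mild LCM samples and from 187 to 1043 CPM in moderate to severe LCM samples. In whole lung it was 315 and 902 CPM with mild and 347, 384 and 462 CPM with moderate to severe dysplasia, so sample 73 held the least of the whole lung samples. Without 40, 45, 75 and 78 all 25 genes stayed negative, with a median of −1.09, and 10 were lower at p under 0.05, where 5.75% of all genes were lower. With median TIN in the model 24 were lower, with a median of −2.27.

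**Figure D3:**
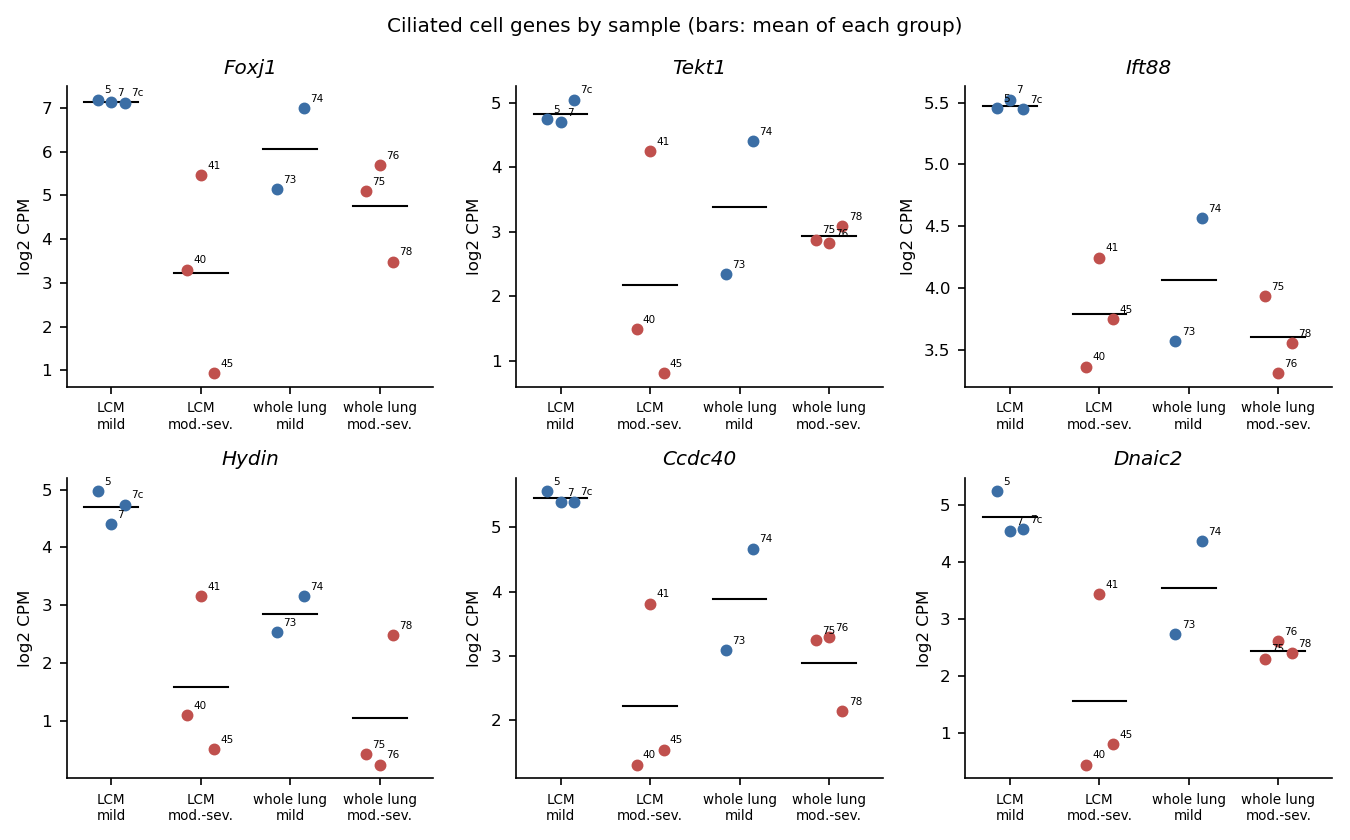
Level in log2 CPM (vertical axis) of Foxj1, Tekt1, Ift88, Hydin, Ccdc40 and Dnaic2 in each sample, by sample type and grade (horizontal axis), with a bar at each group's mean. In LCM every mild sample lies above every moderate to severe sample for these 6 genes, while in whole lung Foxj1, Tekt1, Ift88 and Ccdc40 overlap.

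Among the genes higher in moderate to severe dysplasia, those of the respiratory chain and of the cytosolic ribosome stood out by number. Of 82 oxidative phosphorylation genes 66 were higher at p under 0.05 and 0 lower, where 14.6% of all genes were higher, with a median log2 difference of 1.24. Of 81 ribosomal protein genes 68 were higher and 0 lower, with a median of 1.51. With median TIN in the model, where 9.09% of all genes were higher, 64 of the 82 oxidative phosphorylation genes were still higher (median 1.21), but only 9 of the 81 ribosomal genes (median 0.95). DESeq2 called 59 and 62 of them. In 43 and 37 of them the grades did not overlap in either sample type, where 5.41% of all genes behaved so. Atp5k, a subunit of the ATP synthase, stood at 83.5, 88.9 and 100 CPM against 584, 333 and 439 CPM in LCM and at 78.4 and 73.1 CPM against 160, 124 and 474 CPM in whole lung (log2 difference 2.06, SE 0.37, adjusted p = 0.0545). Uqcrq of complex III (1.68, SE 0.31) and Ndufb3 (1.38, SE 0.26) and Ndufb7 (1.23, SE 0.23) of complex I followed. Rpl38, a protein of the large ribosomal subunit, stood at 251, 300 and 266 CPM against 811, 894 and 1332 CPM in LCM and at 137 and 319 CPM against 473, 419 and 2264 CPM in whole lung (log2 difference 2.04, SE 0.49, adjusted p = 0.0634). Rpl27 (1.56, SE 0.30), Rplp2 (1.42, SE 0.30) and Rpl37a (2.22, SE 0.53) had like values. Ribosomal protein genes have many processed copies in the mouse genome between which reads can be split, so their levels are less certain.

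Most of these genes have short transcripts, and length moved with the grade. The median transcript length was 957 bases in the oxidative phosphorylation list and 961 bases in the ribosomal list. Across 13463 protein-coding genes whose mean reached 1 log2 CPM, the log2 difference and log2 length had a Pearson r of −0.357 and a Spearman rho of −0.409, a description across genes that share the same libraries. Of the 800 genes with transcripts of up to 1000 bases, 57.9% were higher and 2.38% lower at p under 0.05, with a median of 0.96. Of the 4418 genes over 4000 bases, 3.37% were higher and 18% lower, with a median of −0.22. Sample by sample, the slope of log2 CPM on log2 length, relative to each gene's mean, was 0.00, 0.15 and 0.00 in mild LCM samples and −0.22, −0.29 and −0.29 in moderate to severe LCM samples. In whole lung it was 0.43 and 0.22 with mild and 0.13, 0.15 and −0.29 with moderate to severe dysplasia. With each sample's trend on length taken out as an offset, 11.8% of all genes were higher and 8.87% lower at p under 0.05. On that scale 38 of the 82 oxidative phosphorylation genes were higher with a median of 0.57, and 55 of the 81 ribosomal genes with a median of 0.84, while for the ciliated list 23 of 25 were lower with a median of −1.76. Without the 4 samples the medians were 0.82 and 0.95, with 52 and 43 genes higher, where 6.34% of all genes were higher. With both the offset and the 4 samples left out, 15 of 82 oxidative phosphorylation genes were higher with a median of 0.33 and 16 of 81 ribosomal genes with a median of 0.47, where 4.46% of all genes were higher and 4.55% lower. With median TIN in the model, the correlation of the log2 difference with log2 length was r = −0.231 and rho = −0.285.

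**Figure D4:**
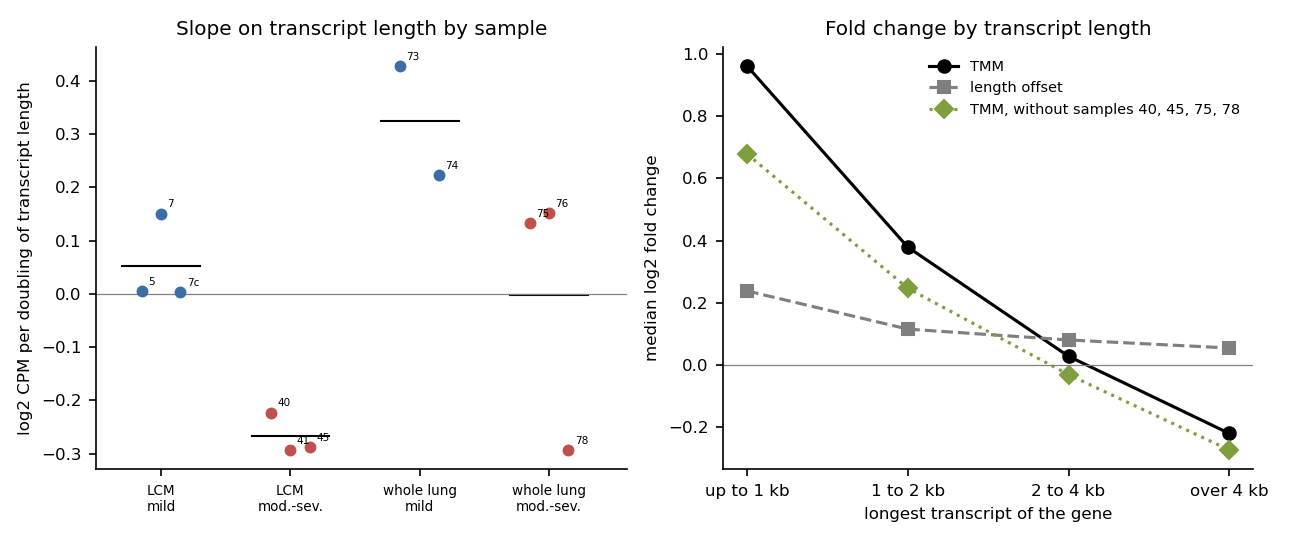
Left, slope of log2 CPM on log2 transcript length (vertical axis) in each sample by grade and sample type. Right, median log2 difference between the grades (vertical axis) in 4 classes of transcript length (horizontal axis), with all 11 samples, with the length offset and without samples 40, 45, 75 and 78. The median runs from 0.96 in the shortest class to −0.22 in the longest, and from 0.24 to 0.06 with the offset.

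Of 27 glycolysis and hypoxia genes 12 were higher and 0 lower, with a median of 0.58, where 14.6% of all genes were higher. In the 7 samples that remained without 40, 45, 75 and 78, 3 of the 27 were higher, where 6.34% of all genes were. Adding median TIN to the model of all 11 samples left 4 of the 27 higher and 0 lower, where 9.09% of all genes were higher. The median was then 0.61. Pgam1, phosphoglycerate mutase, stood at 123, 158 and 141 CPM against 420, 301 and 291 CPM in LCM and at 203 and 140 CPM against 222, 242 and 510 CPM in whole lung (log2 difference 1.12, SE 0.28, adjusted p = 0.0650). Ldha, lactate dehydrogenase A, had a log2 difference of 1.01 (SE 0.31) and the hypoxia-induced mitochondrial protein Higd1a of 1.46 (SE 0.43). Gapdh was at 5.2 to 43.2 CPM in mild samples and at 40 to 422 CPM in moderate to severe samples, and its many processed copies make this level uncertain.

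Squamous genes were higher in moderate to severe dysplasia, and the size rested on samples 45 and 78. All 31 genes of the squamous differentiation list had a positive log2 difference, with a median of 2.87. At p under 0.05, 21 were higher, where 14.6% of all genes were. DESeq2 called 14, where it called 8.77% of all genes higher. Sprr1a, a small proline-rich protein of the cornified envelope, stood at 0, 1.44 and 4.43 CPM against 2.43, 39.3 and 340 CPM in LCM and at 8.11 and 0.286 CPM against 11.9, 7.72 and 481 CPM in whole lung. The highest values were those of 45 and 78, and the log2 difference was 5.62 (SE 1.66, adjusted p = 0.0848). Tgm1, the transglutaminase that crosslinks the envelope, stood at 4.87, 11.2 and 15.6 CPM against 8.61, 62.2 and 154 CPM in LCM and at 18.8 and 7.52 CPM against 17.6, 20.2 and 220 CPM in whole lung (log2 difference 2.78, SE 0.87). Sfn, the epithelial 14-3-3 protein, followed with 2.17 (SE 0.73), and the stress keratin Krt16, at 0 CPM in 4 of 5 mild samples, reached 88.6 CPM in 45 and 17 CPM in 41. With median TIN in the model 0 of the 31 had p under 0.05 in either direction, and the median was 1.85. Without 45 and 78, 28 of the genes were tested and 0 had p under 0.05 in either direction, where 10.5% of all genes were higher and 9.64% lower, and the median was 0.31. Without all 4 samples, 28 genes were tested, 6 were higher, where 6.34% of all genes were, and the median was 0.52. Without 40 and 75, 27 were higher, where 15.6% of all genes were higher and 10.5% lower, and the median was 3.43. Krt13, the keratin of non-cornified squamous epithelium, was at 7813 and 9182 CPM in 45 and 78, between 93 and 886 CPM in the other moderate to severe samples, and between 15.3 and 1306 CPM in mild samples. Its log2 difference was 2.61 (SE 1.52, adjusted p = 0.304) in all samples and −0.11 without the 4. In Krt6a, a keratin of activated and dysplastic epithelium, sample 41 stood at 658 CPM and 45 at 680 CPM, against 65.5 to 278 CPM in mild LCM samples and 29.5 CPM in 40 (log2 difference 2.09, SE 0.90, adjusted p = 0.178). In whole lung Krt6a was at 11.4 and 23.1 CPM with mild and at 8.18, 98.7 and 194 CPM with moderate to severe dysplasia. After the 4 samples were left out, Krt6a had a log2 difference of 2.36.

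Basal cell genes leaned the same way by less. Of 17 basal genes 5 were higher and 0 lower, with a median of 0.71, where 14.6% of all genes were higher. With the 4 samples left out, 6 were higher, with a median of 0.82, where 6.34% of all genes were. With median TIN in the model 0 of the 17 were higher or lower, with a median of 0.14. Krt5 stood at 584, 124 and 881 CPM against 223, 994 and 2843 CPM in LCM and at 144 and 42.9 CPM against 189, 169 and 1117 CPM in whole lung, with overlap in LCM and none in whole lung (log2 difference 1.82, SE 0.83, adjusted p = 0.198). Krt14, its partner keratin, had a log2 difference of 1.85 (SE 0.82, adjusted p = 0.187) and 2.02 without the 4 samples. Trp63, the transcription factor that keeps basal cells in their state, had 1.30 (SE 0.55) and 0.45 without them. The hemidesmosome collagen Col17a1 had 2.21 (SE 0.89) and 1.05, and the laminin chain Lamb3 0.71 (SE 0.31) and 0.93. Without 45 and 78, 0 of the 17 genes were higher and 3 were lower, where 10.5% of all genes were higher and 9.64% lower.

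T cell and cell cycle genes were higher in the 2 samples with thymus transcripts. All 24 T cell genes had a positive log2 difference, with a median of 3.14, and 15 were higher at p under 0.05, where 14.6% of all genes were higher. Without 40 and 75 the median was 0.02, with 1 gene higher and 2 lower, where 15.6% of all genes were higher and 10.5% lower. Without all 4 samples it was −0.20. Adding median TIN to the model of all 11 samples gave 24 of the 24 genes higher, with a median of 4.51, where 9.09% of all genes were higher. Cd3e, part of the T cell receptor complex, stood at 88.4 and 64.8 CPM in 40 and 75, from 0.851 to 7.2 CPM in the other moderate to severe samples, and from 1.48 to 16.2 CPM in mild samples (log2 difference 2.58, SE 1.29, adjusted p = 0.240, and −0.83 without the 4). Cd5, a surface protein that tempers the receptor, was likewise highest in 40 and 75, at 107 and 68.1 CPM (log2 difference 2.69, SE 0.85, and −0.49 without the 4). Foxp3, the transcription factor of regulatory T cells, had another pattern, with 8.12, 11.7 and 8.2 CPM against 19.4, 11.4 and 16.2 CPM in LCM and 10.6 and 10.3 CPM against 22.5, 20.4 and 23.6 CPM in whole lung. Only sample 41 overlapped with the mild samples in Foxp3 (log2 difference 0.90, SE 0.22, adjusted p = 0.0645), and without the 4 samples the log2 difference was 0.62. Of 39 cell cycle and DNA replication genes 13 were higher and 0 lower, with a median of 1.42, where 14.6% of all genes were higher. Without 40 and 75 the median was 0.04 with 3 higher, where 15.6% of all genes were. Without all 4 samples it was −0.28 with 0 higher and 2 lower, where 6.34% of all genes were higher and 5.75% lower. Adding median TIN to the model of all 11 samples gave 24 of the 39 higher, with a median of 1.90, where 9.09% of all genes were higher. Mki67, the proliferation marker, stood at 220 and 227 CPM in 40 and 75 and from 13.5 to 32.8 CPM in the other moderate to severe samples, against 12.7 to 49.6 CPM in mild samples. Its log2 difference was 1.98 (SE 0.78) in all samples and −0.28 without the 4. The survivin gene Birc5 had 2.53 (SE 0.73) and 0.50, the mitotic activator Cdc20 1.63 (SE 0.48) and 0.13, and the mitotic kinase Plk1 2.29 (SE 0.69) and 0.50, in that order with all samples and without the 4. When only 40 and 75 were left out, Birc5 had 1.13, Cdc20 1.07 and Plk1 0.99. Cdc20 stood at 25.8 and 19.5 CPM in 45 and 78, against at most 8.97 CPM in mild samples.

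**Figure D5:**
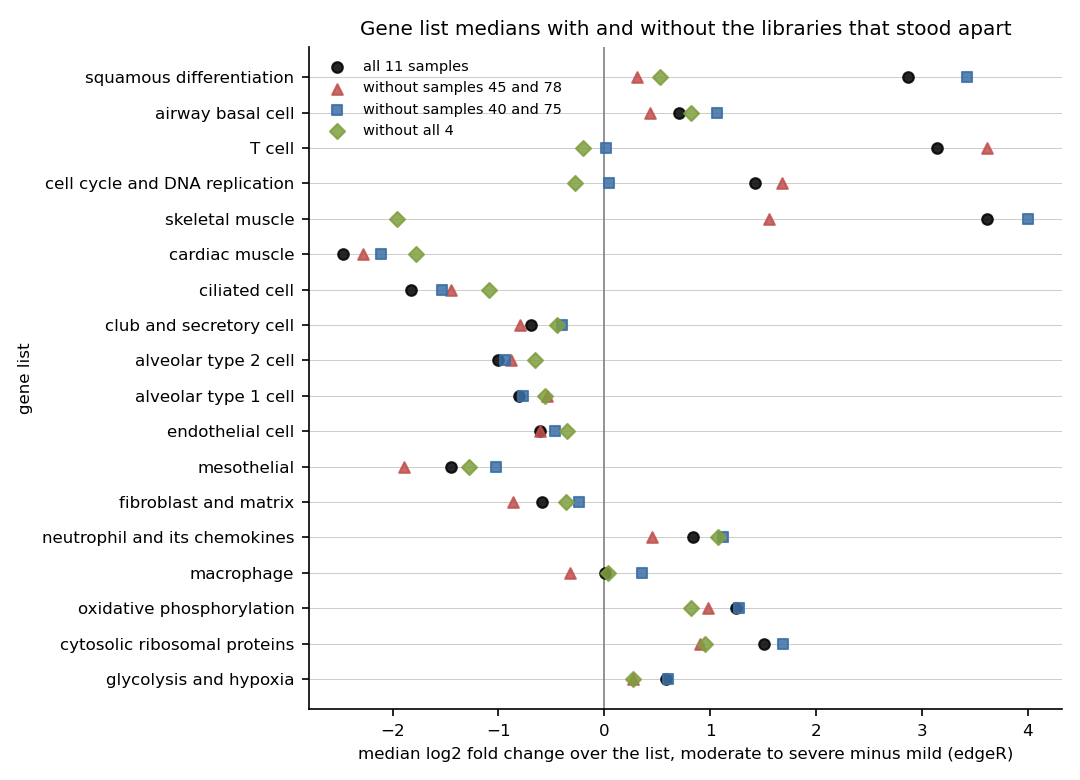
Median log2 difference of moderate to severe against mild dysplasia (horizontal axis) for 18 gene lists (vertical axis), with all 11 samples, without 45 and 78, without 40 and 75, and without all 4. The medians of the squamous and T cell lists move from 2.87 and 3.14 to 0.52 and −0.20 without the 4 samples, while the ciliated list stays at or below −1.09 and the oxidative phosphorylation and ribosomal lists at or above 0.82.

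Genes of the alveoli and vessels had lower levels in the comparison of all samples, where 10.6% of all genes were lower. Of 14 alveolar type 2 genes 8 were lower and 0 higher, with a median of −1.0. Without the 4 samples 0 were lower, with a median of −0.65, where 5.75% of all genes were lower. Lamp3, a protein of the lamellar bodies that store surfactant, stood at 34.8, 70 and 12.1 CPM against 1.32, 4.09 and 3.3 CPM in LCM and at 186 and 456 CPM against 123, 231 and 68.2 CPM in whole lung (log2 difference −2.62, SE 0.70, adjusted p = 0.0707). The grades did not overlap in LCM and did in whole lung. The phosphate carrier Slc34a2 (−2.40, SE 0.77), the chemokine Cxcl15 (−1.96, SE 0.61) and the surfactant lipid enzyme Lpcat1 (−1.12, SE 0.35) also had p under 0.05. Surfactant protein C, Sftpc, had −1.85 (SE 0.91, adjusted p = 0.233). Of 12 alveolar type 1 genes 5 were lower, with a median of −0.81, among them Akap5 (−2.18, SE 0.52), Sec14l3 (−2.37, SE 0.70) and the tight junction claudin Cldn18 (−2.25, SE 0.80). Ager, the defining gene of these cells, had −0.54 (SE 0.65). Among mild samples Sec14l3 stood at 499, 182 and 376 CPM in LCM and at 221 and 584 CPM in whole lung, so it was not scarce in LCM. Akap5 stood there at 9.09, 17.6 and 6.45 CPM against 79.2 and 129 CPM in whole lung. In the 7 samples that remained without 40, 45, 75 and 78, 1 of the 12 was lower and 3 were higher, with a median of −0.56.

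Of 24 endothelial genes 10 were lower and 0 higher, with a median of −0.61, where 10.6% of all genes were lower. In 7 of them moderate to severe samples lay below mild samples without overlap in either sample type, where 3.91% of all genes were so ordered. Calcrl, the receptor subunit for adrenomedullin, stood at 65.3, 59.7 and 23.9 CPM against 12.3, 10.7 and 11.1 CPM in LCM and at 236 and 537 CPM against 122, 216 and 41.4 CPM in whole lung (log2 difference −1.90, SE 0.42, adjusted p = 0.0585). Ptprb, the endothelial phosphatase, had −1.36 (SE 0.31), Cdh5, the cadherin of endothelial junctions, −1.35 (SE 0.33), and the endothelial transcription factor Erg −1.32 (SE 0.33). After the 4 samples were left out, 6 of the 24 were lower, with a median of −0.35, where 5.75% of all genes were lower. Calcrl, Ptprb, Cdh5 and Erg stayed negative, from −1.48 for Calcrl to −0.88 for Cdh5.

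Other tissue of the section differed as well. Of 29 fibroblast and matrix genes 6 were lower and 0 higher, with a median of −0.59, led by Ogn, where 10.6% of all genes were lower. With the 4 samples left out, 4 were lower and 1 higher, with a median of −0.36, and with the length offset as well 4 were lower and 2 higher, with a median of −0.18. Fbln5, which places elastin on microfibrils, had −0.92 (SE 0.20, adjusted p = 0.0567), Pdgfra, the receptor of lung fibroblasts, −0.82 (SE 0.25), and Eln, elastin itself, −3.52 (SE 0.93). Eln stood at 94.8, 14.8 and 23.8 CPM against 1.1, 4.6 and 2.31 CPM in LCM and at 191 and 105 CPM against 15.3, 43.7 and 0 CPM in whole lung, with no overlap. Of 5 mesothelial genes 3 were lower, Upk3b, Lrrn4 (−4.02, SE 0.95) and Rspo1 (−1.45, SE 0.54). Upk3b, a uroplakin of the mesothelium, stood at 71.1, 62.3, 52.3 and 37.7 CPM in mild samples other than 7c, at 0.403 CPM in 7c, and at 0 to 3.89 CPM in moderate to severe samples (log2 difference −5.30, SE 1.22, adjusted p = 0.0589). Of 14 cardiac genes 10 were lower, with a median of −2.47, and the atrial peptide Nppa (−4.80, SE 1.25) and light chain Myl4 (−2.58, SE 0.72) and the calcium channel Ryr2 (−2.75, SE 0.72) led by p together with Tnni3 (−3.23, SE 1.02). Sample 73, with mild dysplasia, held the most cardiac transcript, 827 CPM of the heavy chain Myh6, and without the 4 samples 0 of the 14 cardiac genes were lower by p. Of 18 skeletal muscle genes 9 were higher, with a median of 3.61 that became −1.96 without the 4 samples. The smallest p of that list belonged to the calcium buffer Pvalb (4.84, SE 1.36) and the fast troponins Tnnt3 (3.61, SE 1.28) and Tnni2 (3.96, SE 1.42), each highest in 45 and 78. These values moved with the muscle transcripts that single samples held.

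Leukocyte genes outside the T cell list differed singly. Of 14 genes of neutrophils and their chemokines 4 were higher and 0 lower, with a median of 0.84, where 14.6% of all genes were higher. Leaving out the 4 samples gave 2 of 13 genes higher, with a median of 1.07. Within LCM the median was 0.13, with 4 higher and 2 lower, and the summed level of the listed genes was 14280, 8211 and 15175 CPM in mild against 2439, 13612 and 5373 CPM in moderate to severe samples. S100a8, S100a9, Retnlg and Cxcl3, described next, each reached at most 40.8 CPM in mild LCM samples. Nearly all of the summed level there came from other listed genes. S100a8, a calcium-binding protein that fills the neutrophil cytosol, stood at 12, 14.4 and 22.7 CPM against 34.3, 32.2 and 1152 CPM in LCM and at 12.9 and 94.5 CPM against 346, 280 and 380 CPM in whole lung (log2 difference 3.72, SE 1.04, adjusted p = 0.0758). The grades did not overlap in either sample type, and without the 4 samples the log2 difference was 1.70. Squamous epithelium makes S100a8 and its partner S100a9 (3.44, SE 0.99) as well. Retnlg, a secreted protein of neutrophils, stood at 0.974, 1.44 and 1.61 CPM against 9.82, 4.6 and 7.27 CPM in LCM and at 9.26 and 84.2 CPM against 189, 118 and 88 CPM in whole lung (log2 difference 1.92, SE 0.51, adjusted p = 0.0707). The chemokine Cxcl3 was at 0 to 0.666 CPM in mild samples and at 0.268 to 16.7 CPM in moderate to severe samples (log2 difference 4.24, SE 1.14). Of 21 macrophage genes 2 were higher and 3 lower. The complement genes C1qa (0.76, SE 0.28) and C1qc (0.84, SE 0.33) were the 2 higher. With the length offset C1qa had 0.255 and C1qc 0.43. On that scale 0 of the 21 were higher and 4 lower, where 11.8% of all genes were higher and 8.87% lower. Marco, a scavenger receptor of alveolar macrophages, was at 215 and 84.2 CPM in mild whole lung samples against 17, 41.1 and 15.1 CPM in moderate to severe ones, and below 4 CPM in all LCM samples (log2 difference −2.22, SE 0.53, adjusted p = 0.0614).

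Stress and signalling genes differed singly more than as lists. Of 24 NRF2 target genes, which answer electrophiles and oxidants, 3 were higher and 1 lower, with a median of 0.32, a share no larger than the 14.6% of all genes that were higher. Nqo1, a quinone reductase, stood at 8.12, 6.3 and 8.2 CPM against 18.2, 42.6 and 84.3 CPM in LCM and at 9.43 and 11.3 CPM against 16.1, 11.5 and 80.3 CPM in whole lung, with no overlap (log2 difference 2.28, SE 0.57, adjusted p = 0.0645). Without the 4 samples Nqo1 had 1.55. The other members by p were Taldo1 of the pentose phosphate pathway (0.62, SE 0.22), the glutathione transferase Gstp1 (1.2, SE 0.50) and thioredoxin reductase Txnrd1 (−0.41, SE 0.19). With the length offset Taldo1 had 0.23, Gstp1 0.42 and Txnrd1 −0.29. Of 24 genes of the IL-6 family and its STAT3 response 3 were higher and 2 lower. The receptor chains were the lower ones. Il6ra stood at 6.82, 2.34 and 4.7 CPM against 0.883, 1.02 and 1.82 CPM in LCM and at 29.1 and 18 CPM against 6.44, 6.81 and 2.07 CPM in whole lung, with no overlap (log2 difference −2.02, SE 0.41, adjusted p = 0.0552). Il6st, the shared signalling chain gp130, had −0.78 (SE 0.21, adjusted p = 0.0707). The metallothioneins, which bind zinc and copper, were higher. Mt1 stood at 157, 143 and 97.9 CPM against 344, 408 and 1692 CPM in LCM and at 65 and 96.2 CPM against 110, 257 and 1143 CPM in whole lung, again with no overlap (log2 difference 2.65, SE 0.65, adjusted p = 0.0645). Mt2 had 3.05 (SE 0.84), and without the 4 samples Mt1 and Mt2 had 1.63 and 1.94.

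The endoplasmic reticulum list had 4 of 26 genes higher and 4 lower, where 14.6% of all genes were higher and 10.6% lower. Hsp90b1, the chaperone of the reticulum lumen, stood at 575, 600 and 637 CPM against 310, 378 and 272 CPM in LCM and at 515 and 583 CPM against 350, 393 and 373 CPM in whole lung (log2 difference −0.76, SE 0.21, adjusted p = 0.0753). The co-chaperone Dnajb9 (−0.65, SE 0.18) and the stress sensor Atf6 (−0.60, SE 0.19) were lower with it, while Ddit3, the CHOP transcription factor, had 0.60 (SE 0.17). With the length offset Atf6 had −0.23 and Ddit3 0.11, while Hsp90b1 and Dnajb9 had −0.67 and −0.77. Of 17 genes of TGF-beta and activin signalling 6 were lower and 0 higher, with a median of −0.39, where 10.6% of all genes were lower. After the 4 samples were left out, 2 were lower and 2 higher, with a median of −0.18. The ligand Tgfb3 stood at 35.4, 25.2 and 26.1 CPM against 5.63, 14.5 and 14.9 CPM in LCM and at 30.1 and 23.5 CPM against 6.17, 13.6 and 14.2 CPM in whole lung, with no overlap (log2 difference −1.28, SE 0.31, adjusted p = 0.0643). The ligand Tgfb2 (−1.41, SE 0.42) and the feedback inhibitors Skil (−0.63, SE 0.20) and Smad7 (−0.75, SE 0.28) followed, and without the 4 samples Tgfb3 had −1.0. Of 18 Notch genes 3 were lower, the receptors Notch4 (−1.04, SE 0.34) and Notch2 (−0.62, SE 0.26) and the DNA-binding partner Rbpj (−0.41, SE 0.17), where 10.6% of all genes were lower. With the 4 samples left out, 0 of the 18 were lower. Without these samples the list of xenobiotic enzymes and alkyl repair had 1 of 20 genes lower and 1 higher. In all samples 5 were lower and 0 higher, among them the flavin monooxygenase Fmo2 (−1.04, SE 0.39), the sulfotransferase Sult1d1 (−1.86, SE 0.70), the aldehyde oxidase Aox3 (−1.36, SE 0.48) and Por, which feeds electrons to cytochromes P450 (−0.72, SE 0.32). Club cells of the airway are rich in such enzymes, and their own list had 2 of 15 genes lower and 0 higher, with a median of −0.69. The 2 were the secreted antimicrobial Bpifb1 (−1.76, SE 0.58) and Gp2 (−1.91, SE 0.77). The club cell secretory protein Scgb1a1 had −0.79 (SE 0.71) and Cyp2f2 −0.81 (SE 0.53).

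The remaining pathways held few genes with p under 0.05, where 14.6% of all genes were higher and 10.6% lower. Of 16 Wnt genes the ligands Wnt10a (1.51, SE 0.60) and Wnt4 (1.45, SE 0.58) were higher and beta-catenin, Ctnnb1 (−0.75, SE 0.27), was lower. Wnt4 stood at 81.5, 88.9 and 87.9 CPM against 47.7, 196 and 171 CPM in LCM and at 19 and 11.4 CPM against 43.7, 37.8 and 173 CPM in whole lung, so that sample 40 lay below the mild LCM samples and the other 5 above the mild samples of their type. Of 14 genes of the EGF receptor family 2 were lower, the receptor inhibitor Lrig1 (−0.95, SE 0.27, adjusted p = 0.0786) and the ligand Tgfa (−1.25, SE 0.49). Lrig1 stood at 116, 119 and 103 CPM against 26.9, 56.9 and 47.9 CPM in LCM and at 42.6 and 46 CPM against 31.5, 24.6 and 43.4 CPM in whole lung, with a clear gap in LCM and an overlap in whole lung.

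Of 12 metalloproteinases and inhibitors 2 were lower, the inhibitor Timp3 (−0.86, SE 0.34) and the membrane enzyme Mmp15 (−0.82, SE 0.33). Of 33 interferon response genes the immunoproteasome subunit Psmb8 (0.97, SE 0.35) and the chemokine Cxcl10 (2.66, SE 0.97) were higher and the RNA sensor Ddx58 (−0.76, SE 0.27) was lower. Psmb8 was highest in 40 and 75, at 254 and 143 CPM. Of 30 immediate early genes 1 was higher, the growth factor-induced transcription factor Myc (1.0, SE 0.37, adjusted p = 0.133). Myc stood at 4.22, 23.8 and 16 CPM against 34.5, 24.9 and 46.9 CPM in LCM and at 18.7 and 13.3 CPM against 29.9, 20.3 and 26.3 CPM in whole lung, with no overlap. Of 21 p53 target genes 1 was higher, Phlda3 (0.61, SE 0.28), an inhibitor of Akt, and it had 1.13 without the 4 samples. Without the 4, 6 of the 21 were higher, with a median of 0.44 against 0.14 in all samples, where 6.34% of all genes were higher. Smooth muscle, MHC class II and erythroid genes had 0 in either direction, out of 12, 9 and 6. B cell genes had 1 of 16 lower with a median of −0.77, and without 40 and 75 they had 6 lower with a median of −1.57, where 10.5% of all genes were lower. Adipocyte genes had 1 of 9 lower and neuroendocrine genes 2 of 5 higher, where Chga stood at 3715 and 1802 CPM in 45 and 78 and at most at 3.63 CPM elsewhere.

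Samples 42 (LCM) and 79 (whole lung) carried a severe dysplasia grade at 50 µmol and were described beside the comparison without a test. They too held Tg, at 7.14 and 9.01 log2 CPM, and the median TIN was 21.7 in 42 and 33.9 in 79. Both stood far from the mild samples over all genes, with 32% of the 15716 genes in 42 and 25.7% in 79 below all 5 mild samples and 26.2% and 26.4% above them. Of the 25 ciliated genes 17 in sample 42 and 23 in sample 79 lay below all 5 mild samples, with Foxj1 at 3.07 and 1.04 log2 CPM against 5.11 to 7.16 in mild samples. All 31 squamous genes in 42 and 28 in 79 lay above all mild samples. Of the 82 oxidative phosphorylation genes 68 and 60 lay above them, and of the 81 ribosomal genes 72 and 71. Of the 24 endothelial genes 21 in 42 and 8 in 79 lay below the mild samples. S100a8 stood at 12.99 log2 CPM in 42 and at 8.83 in 79, both above the mild range of 3.59 to 6.54.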

How the data were processed

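The submitters sequenced single-end RNA libraries, and per the study's methods the authors trimmed reads with Trimmomatic, aligned them to mm9 with STAR in 2 passes and estimated expected counts per gene with RSEM on an Ensembl annotation. The deposited table holds expected counts, not normalised, of 37310 genes, and 85.7% of the values in these samples were whole numbers. Whether counting used the strand is not given in the sources used here. Gene symbols, biotypes, lengths and mm9 positions came from the deposited annotation, and promoters from the RefSeq GRCm38.p6 table.

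Expected counts were rounded to whole numbers. Genes passed the study's filter on the 11 samples (interquartile range above 0 and sum above 1 of log2 CPM with a prior count of 2), which left 15716. Grade was tested with sample type as a covariate by edgeR 4.0.16 (TMM, robust quasi-likelihood test, Benjamini-Hochberg adjustment) in R 4.3.3, and DESeq2 1.42.0 was the alternative. CPM are TMM-scaled over the 11 samples. A log2 difference is the fitted log2 fold change, and its SE is that change divided by the square root of F. Single measures were compared by exact permutation over 462 splits (SciPy 1.17.1), where 1 split makes up 0.00216 of them, and figures were drawn with matplotlib 3.10.9. The procedure was tested on simulated data.

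The text names the 16 genes with the smallest p in each direction or some of them (protein-coding, mean log2 CPM at least 1, same sign in both sample types), up to 4 members with the smallest p of a list, and cell type markers. The rule held places for genes past the threshold, and since none passed, these were filled by p. Genes of thyroid, parathyroid, thymus and liver, Krt4, and genes named beyond the rule, were chosen after their values were seen. The members and lists were chosen with earlier results of these data known. Leaving out 40 and 75, or all 4 samples, and the length offset (loess, span 0.5) were added after seeing the data. Samples are assumed to be separate libraries, and no 2 were identical.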

Additional observations from a re-analysis of the deposited data

Results flagged for a closer look

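In each grade, the highest and the lowest sample were set against the others for every named gene, list mean and quality measure, and 17 of 380 such groups held a sample far from the rest by Dixon's criterion. Chance alone marks about 1 in 20 groups. All values are log2 CPM, and list values are means over the list.

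Sample 73, the mild whole lung sample with the highest TIN, stood apart from the other mild samples in 4 genes. Foxj1 was at 5.14 in it and between 6.99 and 7.19 in the others, and Tekt1 at 2.35 against 4.41 to 5.05. The club cell gene Cyp2f2 was at 9.62 against 11.91 to 12.75, and Rpl38 at 7.10 against 7.98 to 8.32. Sample 7c, which is described as normal, was low in the mesothelial gene Upk3b, at −0.58 against 5.25 to 6.16, and in Bpifb1, at 1.91 against 4.04 to 4.83, and it was high in Krt16, at 2.06, where the other mild samples had no count. Sample 74 was low in the adipocyte list, at 3.42 against 7.07 to 7.96, and high in Txnrd1, at 6.78 against 5.93 to 6.14.

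Of the moderate to severe samples, 41 was high in the mesothelial list, at 4.30 against 2.12 to 2.70, in the xenobiotic enzyme list, at 6.70 against 5.25 to 5.65, and in Cyp2f2, at 12.78 against 9.81 to 10.64. Sample 78 was high in Alb, at 12.98 against at most 0.68, and in Gapdh, at 8.72 against 5.33 to 6.38, and low in Ddit3, at 4.43 against 4.85 to 5.07. Sample 75 was low in C1qa, at 6.12 against 7.04 to 7.39, and 76 was high in Dnajb9, at 4.62 against 4.18 to 4.33.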

How the results depend on the processing

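The count of genes at an adjusted p under 0.05 was 2342 by DESeq2's Wald test, 2619 with 45 and 78 as the only moderate to severe samples, 2 with the 30 µmol samples alone, 1 without all 4 samples, and 0 to 748 when single samples were left out (1 without 7, 3 without 78, 748 without 76). The interaction count was 25 by DESeq2. Without all 4 samples the list medians were −0.20 for T cells, −0.28 for the cell cycle, −1.96 for skeletal muscle, −0.40 for neuroendocrine and 0.82 for oxidative phosphorylation genes. Without 40 and 75 they were 0.02 for T cells, 0.04 for the cell cycle and 0.02 for the endoplasmic reticulum. At 30 µmol alone they were 0.31 for squamous, −0.18 for neuroendocrine and −0.27 for endoplasmic reticulum genes. With the length offset they were 0.57 for oxidative phosphorylation and 0.84 for ribosomal genes, and with TIN added 0.36 for B cells. Whole lung alone gave −0.75 for ciliated, −0.65 for MHC class II and −2.15 for erythroid genes, and LCM alone 1.40 for erythroid genes, a uniquely aligned share higher by 10.5 percentage points and a count sum higher by 3502911 in moderate to severe dysplasia. Of 2074 values of 150 named genes under other settings 17 turned sign. Without all 4 samples these were Tnnt3 (−0.28), Tnni2 (−0.63), Cd5 (−0.49), Chga (−1.01), Krt13 (−0.11), Cd3e (−0.83), Ckm (−1.96), Mki67 (−0.28), Prss16 (−1.04) and Ccl25 (−0.68). At 30 µmol alone they were Chga (−0.87) and Krt13 (−0.54), and at 25 µmol alone Ager (0.07) and Cd3e (−0.59). Without 40 and 75 they were Cd3e (−0.63) and Ccl25 (−0.05), and with TIN Alb (−7.13). The causes were not tested. None of the 1645 values with a single sample left out turned sign. No paired analysis was possible because the labels give no replicate numbers that tie samples of the grades together. The p-values rest on 5 samples against 6, and on 5 against 2 without all 4, and the samples of a grade share a dose range.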
